A study of Homo sapiens with 6 samples.

Results

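The semaphorins, plexins, neuropilins, Eph receptors and ephrins are guidance genes: they were first known for steering growing axons, and they also control how epithelial cells adhere, spread and move. The members were taken by gene symbol (names starting with SEMA or PLXN, NRP1 and NRP2, and EPHA, EPHB, EFNA or EFNB followed by a number), which gave 53 genes of the 20802 measured. They comprise 20 semaphorins, 9 plexins, 2 neuropilins, 14 Eph receptors and 8 ephrins. The rule uses symbols and no measured value, though earlier results of these data were known when it was set. An antisense transcript at the EPHA1 locus was not counted as a member, because its symbol does not end at the number. It is not stated whether the counting used strand.

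Semaphorins are secreted or membrane-bound ligands, and plexins are their receptors, whose cytoplasmic part acts on small GTPases and through them on the cytoskeleton and on integrin adhesion. Most secreted class 3 semaphorins do not bind plexins tightly by themselves and are held to the complex by the neuropilins NRP1 and NRP2, which also serve as co-receptors for VEGF. Eph receptors are the largest family of receptor tyrosine kinases, and their ligands, the ephrins, are tethered to the neighbouring cell, so that both sides of a contact can signal. In mammary epithelium, Eph receptors and semaphorins are known for setting cell borders, migration and duct shape.

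The cells were MCF10A, an established non-tumorigenic human mammary epithelial line, and the question was how the stable overexpression of GIRK1 (KCNJ3), a subunit of a G-protein-activated inwardly rectifying potassium channel, alters the transcriptome. MCF10A GIRK1 cells carried a linearised pIRES2eGFP plasmid with the human GIRK1 coding sequence, MCF10A eGFP cells carried the same plasmid without it, and MCF10A WT cells were the untransfected parental line. Both transfected lines had been selected with G418 and sorted by eGFP fluorescence, so that eGFP and selection were shared by the GIRK1 and eGFP cells and absent from the WT cells. By the labels, RNA was measured in 2 libraries of each line with the Ion AmpliSeq Transcriptome panel. The panel reads each gene through a single short amplified stretch of its cDNA. Neither separate cultures nor separate transfections are stated for the 2 libraries of a line, so the p-values given here measure only the spread between these libraries, which may be technical.

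The GIRK1 libraries held 11107309 and 10346572 reads, the eGFP libraries 5126930 and 10233974, and WT replicate 2 16040556. WT replicate 1, with 2506120 reads, stood apart from the rest: over 9212 well-covered genes the SD of its log2 ratio to WT replicate 2 was 2.07, against 0.37 between the GIRK1 libraries and 0.68 between the eGFP libraries. Its 8 luminal markers summed to 13717 RPM (read counts scaled to equal library totals) against 390 to 493 RPM in the 5 other libraries, and its 8 basal epithelial markers to 395 against 8384 to 15782 RPM, with TP63 at 0 reads in all 6 libraries. KCNJ3 had 2408 and 3677 reads in the GIRK1 libraries, 0 in both eGFP libraries and in WT replicate 2, and 48 in WT replicate 1. WT replicate 1 is parental MCF10A by its label only, and these markers set it apart from the 5 other libraries. Its identity was not tested. It is therefore described separately, and GIRK1 was compared with the eGFP pair and with WT replicate 2. The summed RPM of 7 fibroblast markers was 31.9 and 33.5 in the GIRK1 libraries and 8.60 to 13.7 in the 3 controls. DCN gave most of it in the GIRK1 libraries (27.0 and 25.2 RPM) and in WT replicate 2 (10.2). In the eGFP libraries COL1A1 (9.17 and 4.5 RPM) was above DCN (0.78 and 3.71). COL1A2 and PDGFRA were at 0 in all 6 libraries. The GIRK1 libraries also carry a name tag that no other library carries. If that tag marks a run, run and line cannot be told apart.

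Most members were low in MCF10A. Of the 53, 30 had more than 3 reads in each of the 5 libraries without WT replicate 1, 13 had 3 reads or fewer in every one of them, and 8 had none there. EPHA5, EPHA8, EPHB1 and PLXNC1 had 0 reads in all 6 libraries. A floor of 3 reads corresponds to 0.187 RPM in WT replicate 2 and to 1.20 RPM in WT replicate 1, for counting error only. The summed RPM of the members was 944 and 902 in the GIRK1 libraries, 1195 and 1105 in the eGFP libraries and 935 in WT replicate 2. The filter on low counts left 35 members for the test. That filter keeps a gene that is high in a single library, so members such as SEMA4A and SEMA7A were tested with 3 reads or fewer in some libraries. Amplicons differ in how well they amplify, so an order of levels between genes is an order of amplicon RPM and not of transcript number.

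**Figure D1:**
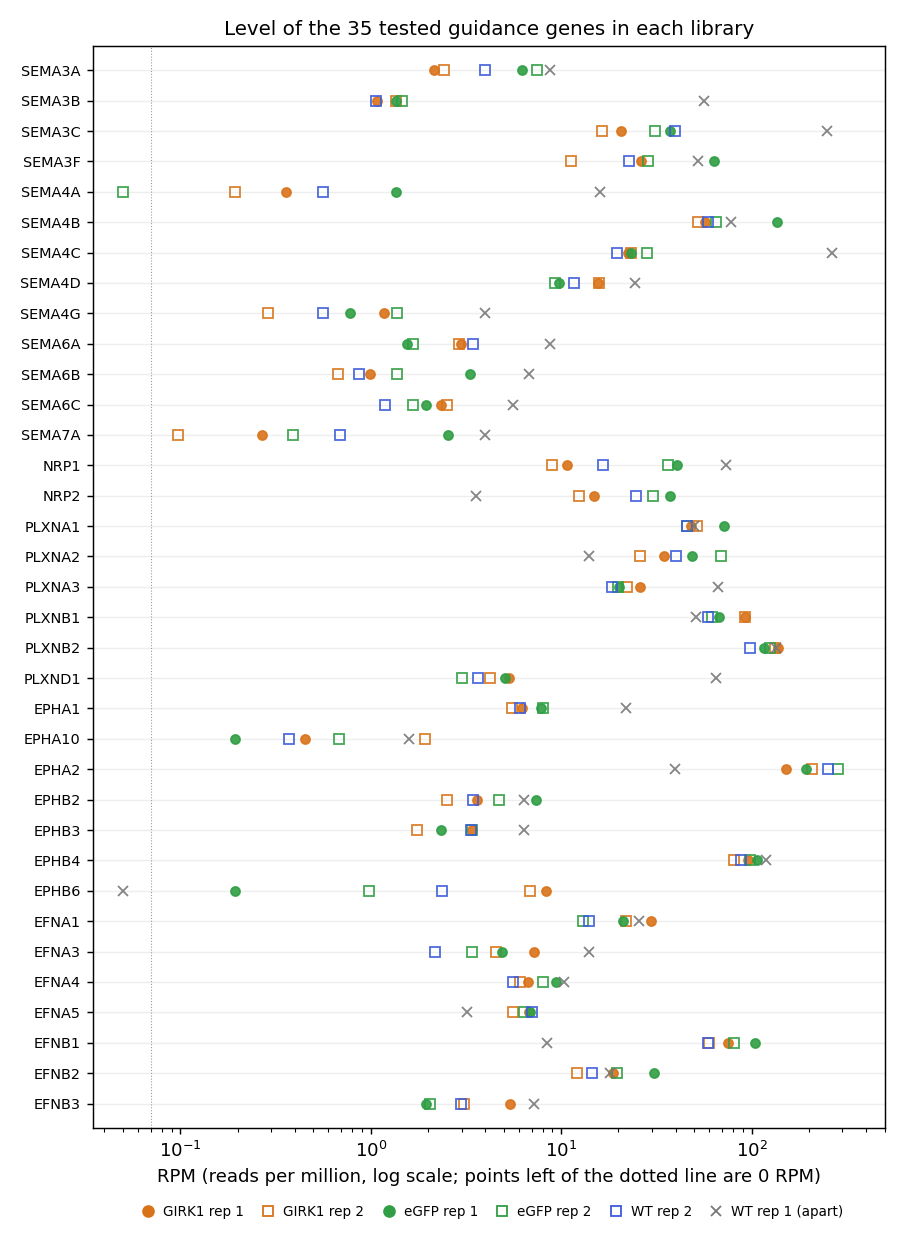
RPM (log axis) of each of the 35 tested members in the 6 libraries; filled circles are replicate 1, open squares replicate 2, and grey crosses WT replicate 1, which is shown apart. EPHA2, PLXNB2 and EPHB4 had the highest mean RPM over the 5 libraries without WT replicate 1, NRP1 in both GIRK1 libraries (10.7 and 8.99 RPM) lies left of the 3 controls, and EPHB6 (8.28 and 6.86 RPM) lies right of them.

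Against the eGFP cells, 2 of the 35 tested members passed an adjusted p of 0.05 in edgeR's quasi-likelihood test (Benjamini-Hochberg over 11779 genes): NRP1 fell and EPHB6 rose in the GIRK1 cells. The background was 1.6% of all tested genes (0.756% higher and 0.84% lower). At an unadjusted p of 0.05 there were 9 members, 2 with higher values (EPHB6 and SEMA4D) and 7 with lower values (NRP1, NRP2, PLXNA2, SEMA3A, SEMA3C, SEMA3F and SEMA4B), against a background of 18.8% (8.13% higher and 10.7% lower). The log2 fold change was negative for 23 of 35 (65.7%, where all tested genes had 48.7%), with a median of -0.29, where the median of all tested genes was 0.02. By family the median was -0.93 for 13 semaphorins, -1.68 for the 2 neuropilins, -0.25 for 7 Eph receptors, -0.13 for 7 ephrins and 0.17 for 6 plexins. Leaving out eGFP replicate 2 raised the calls among members to 12 and leaving out eGFP replicate 1 to 6, while over all genes they went from 188 to 2997 and 973, and leaving out either GIRK1 library left 1. With the controls pooled, no member was called where 1.21% of 11389 genes were, and with all 6 libraries in the fit no gene at all was called.

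With WT replicate 2 as the control, 0 of 35 members passed the adjusted threshold in edgeR's test (background 0.229%, with 0.195% higher and 0.034% lower), and DESeq2 called 0 as well. At an unadjusted p of 0.05 there were 6, with EFNA3, EPHB6 and PLXNB1 higher and NRP1, NRP2 and SEMA3C lower (background 7.38%, with 3.76% higher and 3.62% lower). This control is a single library, and its spread was taken from the GIRK1 and eGFP pairs. The median log2 fold change over the members was 0.10 (0.01 over all tested genes), with 19 positive and 16 negative (45.7%, where all tested genes had 49.1%). By family the median was -0.09 for the semaphorins, -0.79 for the neuropilins, -0.04 for the Eph receptors, 0.21 for the ephrins and 0.40 for the plexins. In the fit of eGFP against WT replicate 2, which shares libraries with both comparisons, 0 members passed in edgeR's test (background 0.0%). At an unadjusted p of 0.05 there were 2, NRP1 higher and EPHB6 lower (background 3.55%, with 2.15% higher and 1.4% lower), and 27 of 35 had a positive log2 fold change (77.1%, where all tested genes had 51.2%) with a median of 0.43, against 0.01 over all tested genes. The median was 0.65 for the semaphorins and 0.89 for the neuropilins.

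**Figure D2:**
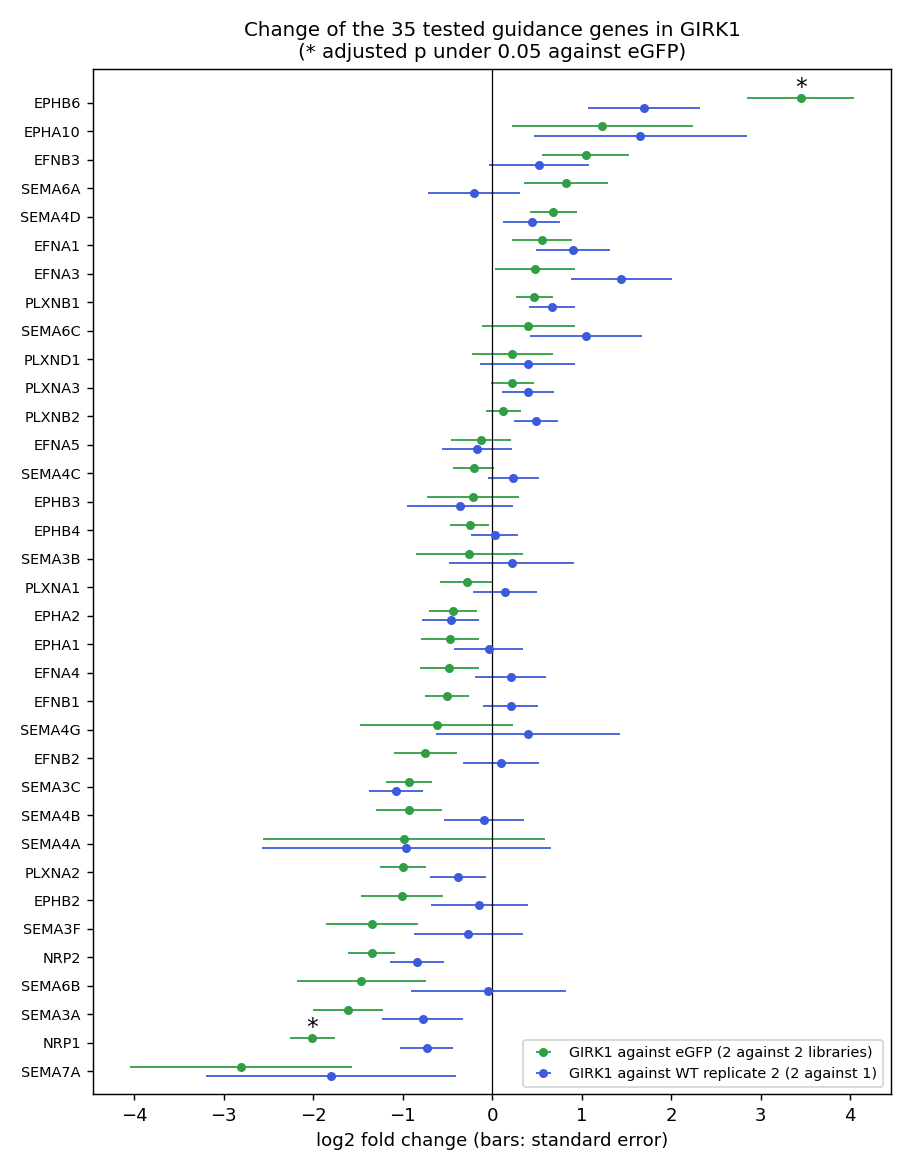
Log2 fold change of each tested member in GIRK1 cells against the eGFP pair (green) and against WT replicate 2 (blue), with the standard error of the fit as bars; asterisks mark an adjusted p below 0.05 against eGFP. NRP1 (-2.01 and -0.73) and EPHB6 (3.45 and 1.69) lay on the same side of 0 for both controls, and SEMA4B (-0.93 and -0.09) and SEMA6B (-1.46 and -0.04) were near 0 against WT replicate 2.

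Both GIRK1 libraries lay outside all 3 controls for 15 of the 35 tested members. EFNA1, EFNB3, EPHB6, PLXNA3, PLXNB1, PLXNB2, SEMA4D and SEMA6C lay above them, 8 members against a background of 21.6% of tested genes. NRP1, NRP2, PLXNA2, SEMA3A, SEMA3C, SEMA4B and SEMA7A lay below them, 7 members against a background of 19.3%. These shares of members are near the background. The rule used in the study's methods, read here as RPM means at least 2-fold apart and, within each line, an SD below 0.7 of the mean, took 6 of the 53 members against a background of 6.29% of all genes (3.01% higher and 3.28% lower). EFNB3 was the member on the higher side, and NRP1, NRP2, SEMA3A, SEMA3F and SEMA6B were on the lower side. All 6 had a mean of at least 10 reads, a level at which 31 members stood and at which the background was 4.58% higher and 5.2% lower. On raw counts, which leave the unequal library totals uncorrected, the same rule took 8 members, 6 higher and 2 lower. The share of all genes was not counted on raw counts, so this split is not read as a result about the members.

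NRP1, the co-receptor of class 3 semaphorins and VEGF-A, was about 4-fold lower in GIRK1 than in eGFP cells and held an intermediate value in WT replicate 2. The gene lies at chr10:33177492-33336262 on the minus strand (GRCh38). Its amplicon gave 10.7 and 8.99 RPM in the GIRK1 libraries (119 and 93 reads), 40.6 and 36.5 in the eGFP libraries (208 and 374 reads) and 16.6 in WT replicate 2 (266 reads). The GIRK1 values lay below every control, and the eGFP values lay above WT replicate 2. The group means were 9.85 ± 1.22 and 38.6 ± 2.85 RPM (SD, n = 2). In edgeR's quasi-likelihood fit the log2 fold change was -2.01 with a standard error of 0.26, 4.03-fold lower, with an adjusted p of 0.0180. Against WT replicate 2 the log2 fold change was -0.73 (standard error 0.30, adjusted p 0.661, unadjusted 0.0434). That of eGFP against WT replicate 2 was 1.28 (standard error 0.31, adjusted p 0.953, unadjusted 0.00472). In bulk RNA, fewer cells with a transcript and less transcript per cell cannot be told apart. The call against eGFP was lost without GIRK1 replicate 2 (adjusted p 0.0665, log2 fold change -1.90), with pooled controls (0.116, -1.68) and with all 6 libraries (0.934, -2.00). It was kept in 11 of 14 alternatives, in which the adjusted p ran from 2.16e-06 to 0.934 and the log2 fold change from -2.14 to -1.68.

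NRP2, the other neuropilin and the usual partner of SEMA3F, had the same order of lines but did not pass the adjusted threshold. The share of all tested genes with this order was not counted. It lies at chr2:205681990-205798133 on the plus strand. The amplicon gave 14.9 and 12.4 RPM in the GIRK1 libraries, 37.1 and 30.3 in the eGFP libraries and 24.7 in WT replicate 2. Again the GIRK1 values were below all controls. Means were 13.6 ± 1.76 and 33.7 ± 4.79 RPM (SD, n = 2), and the log2 fold change was -1.35 with a standard error of 0.26 (edgeR, adjusted p 0.0674). Against WT replicate 2 it was -0.84 (standard error 0.31, adjusted p 0.602). It was called in 5 of 14 alternatives, in which the adjusted p ran from 0.00105 to 0.934. Together the neuropilin amplicons gave 25.6 and 21.4 RPM in the GIRK1 libraries, 77.6 and 66.8 in the eGFP libraries and 41.3 in WT replicate 2.

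Among the class 3 semaphorins, 4 of 7 were tested and none passed the adjusted threshold, although their summed level was lower in both GIRK1 libraries (50.1 and 31.7 RPM) than in the eGFP libraries (108 and 69.0) and in WT replicate 2 (67.3). SEMA3A, the repellent that signals through NRP1 and class A plexins, gave 2.16 and 2.42 RPM in GIRK1, 6.24 and 7.43 in eGFP and 3.99 in WT replicate 2. The GIRK1 values were the lowest, as for 19.3% of tested genes, and the order of lines was that of both neuropilins. The share of all tested genes with this order was not counted, so this likeness is not evidence of a shared change. Its log2 fold change against eGFP was -1.61 (standard error 0.39, edgeR adjusted p 0.104). SEMA3F, a ligand of NRP2, gave 26.1 and 11.3 RPM in GIRK1, 63.2 and 28.4 in eGFP and 22.8 in WT replicate 2. Here the libraries of a line were more than 2-fold apart and GIRK1 overlapped WT replicate 2. Its log2 fold change against eGFP was -1.34 (standard error 0.51, adjusted p 0.227). Over the alternatives it ran from -2.05 to -0.59.

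SEMA3C, a secreted ligand that can act through either neuropilin, is named here because its values were seen to separate from both controls. It gave 20.5 and 16.3 RPM in GIRK1, 37.1 and 31.0 in eGFP and 39.4 in WT replicate 2. Both GIRK1 values were below all controls, and eGFP and WT replicate 2 were close to each other. The log2 fold change was -0.93 against eGFP (standard error 0.26, edgeR adjusted p 0.136) and -1.08 against WT replicate 2 (standard error 0.30, adjusted p 0.420). SEMA3B, a secreted semaphorin regarded as a tumour suppressor, was between 1.06 and 1.47 RPM in these 5 libraries. SEMA3A, SEMA3C, SEMA3D and SEMA3E lie on the same arm of chromosome 7, and SEMA3B and SEMA3F lie close together on chromosome 3 (chr3:50267558-50277546 and chr3:50155045-50189075).

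**Figure D3:**
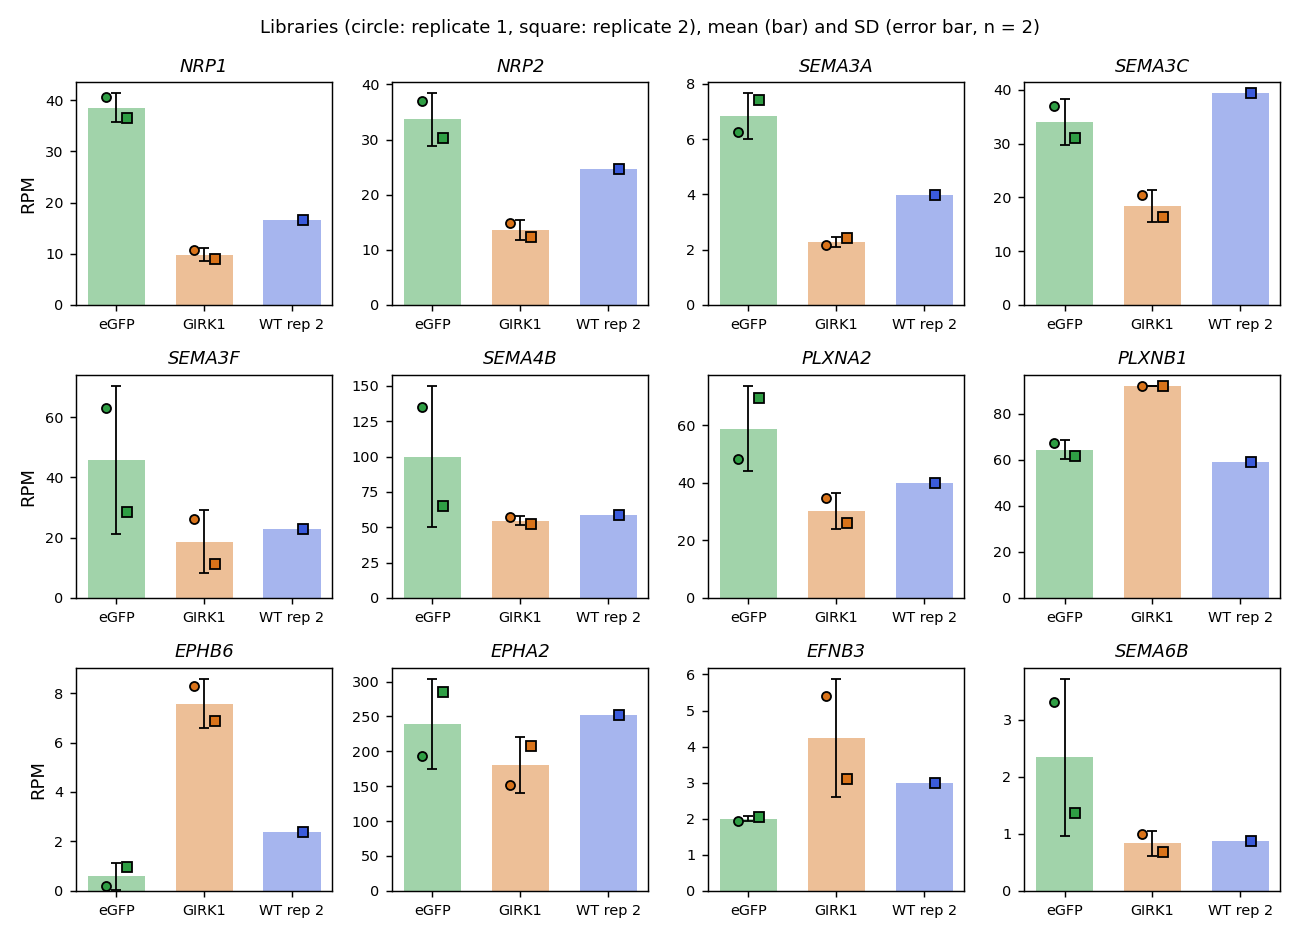
RPM of 12 members by line, with the libraries as points (circle replicate 1, square replicate 2), the mean as a bar and the SD as an error bar (n = 2); WT is replicate 2 alone and each axis starts at 0. NRP1, NRP2, SEMA3A, SEMA3C and PLXNA2 were lowest in GIRK1, EPHB6 and PLXNB1 highest, and the mean of SEMA3F and SEMA4B in eGFP (45.8 and 100 RPM) rests on eGFP replicate 1 (63.2 and 135 RPM).

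The membrane-bound semaphorins were led by SEMA4B, a class 4 semaphorin whose receptors are less well known. It gave 56.9 and 52.3 RPM in GIRK1, 135 and 64.7 in eGFP and 59.0 in WT replicate 2. Both GIRK1 values were lowest, but they were close to WT replicate 2, and eGFP replicate 1 stood far above the rest. The log2 fold change was -0.93 against eGFP (standard error 0.37, edgeR adjusted p 0.247) and -0.09 against WT replicate 2 (standard error 0.45). Against eGFP it was -0.23 without eGFP replicate 1 and -1.41, past the threshold, without eGFP replicate 2. SEMA4D, the ligand of PLXNB1, gave 15.6 and 15.8 RPM in GIRK1, 9.75 and 9.28 in eGFP and 11.7 in WT replicate 2. Its libraries were close within each line and did not overlap, and its log2 fold change against eGFP was 0.68 (standard error 0.27, adjusted p 0.234). SEMA4D was named after its values were seen. SEMA4C was level, between 19.8 and 28.3 RPM.

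Class 5, 6 and 7 members were at the low end. SEMA6A, which signals through class A plexins, gave 2.97 and 2.90 RPM in GIRK1, 1.56 and 1.66 in eGFP and 3.43 in WT replicate 2, so that GIRK1 and WT replicate 2 were alike in level and eGFP was lower (log2 fold change against eGFP 0.82, standard error 0.47, edgeR adjusted p 0.378). SEMA6B, another transmembrane ligand of class A plexins, gave 0.99 and 0.677 RPM in GIRK1, 3.32 and 1.37 in eGFP and 0.873 in WT replicate 2. That pattern puts eGFP above both other lines, and the value against eGFP was -1.46 on the log2 scale (standard error 0.72, adjusted p 0.323). It was -0.68 without eGFP replicate 1 and -2.08 without eGFP replicate 2. SEMA7A, which is anchored by a lipid and binds integrins and plexin C1, gave 0.27 and 0.097 RPM in GIRK1, 2.54 and 0.391 in eGFP and 0.686 in WT replicate 2 (log2 fold change against eGFP -2.81, standard error 1.24, adjusted p 0.281). Without GIRK1 replicate 1 it was -3.69, and without eGFP replicate 2 it was -3.79 and passed the threshold (adjusted p 0.0181). SEMA5A, of the class with thrombospondin repeats, had 2 and 3 reads in GIRK1, 2 and 1 in eGFP and 11 in WT replicate 2, and was not tested.

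No plexin passed the adjusted threshold in either comparison. PLXNB2, a receptor of class 4 semaphorins and the highest plexin amplicon, gave 137.9 and 133 RPM in GIRK1, 117 and 125 in eGFP and 97.9 in WT replicate 2. GIRK1 was above all controls by a small margin (log2 fold change against eGFP 0.12, standard error 0.20, edgeR adjusted p 0.764). PLXNB1, the receptor of SEMA4D, gave 92.1 and 91.9 RPM in GIRK1, 67.3 and 61.7 in eGFP and 58.9 in WT replicate 2. Its log2 fold change was 0.47 against eGFP (standard error 0.21, adjusted p 0.279) and 0.66 against WT replicate 2 (standard error 0.26, adjusted p 0.648). PLXNB1 and SEMA4D both had their highest values of these 5 libraries in the GIRK1 libraries, as 21.6% of tested genes did, without either passing the test. PLXNB1, like SEMA4D, was named after its values were seen, so their shared direction is not a test of the pair.

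Of the class A plexins, which pair with neuropilins, 3 were tested and none passed. PLXNA2 gave 34.8 and 25.9 RPM in GIRK1, 48.4 and 69.4 in eGFP and 40.1 in WT replicate 2. The GIRK1 values were lowest, and the log2 fold change against eGFP was -0.99 (standard error 0.26, edgeR adjusted p 0.119). It was likewise named after its values were seen. PLXNA1, the highest of the class by its mean over the 5 libraries, gave 47.9 and 51.6 RPM in GIRK1, 72.0 and 45.5 in eGFP and 45.7 in WT replicate 2, so that the lines overlapped. Against eGFP its log2 fold change was -0.29, with a standard error of 0.29 and an adjusted p of 0.624, and it turned to 0.15 without eGFP replicate 1. PLXND1, the receptor of SEMA3E that is best known in endothelium, gave 5.31 and 4.25 RPM in GIRK1, 5.07 and 3.03 in eGFP and 3.68 in WT replicate 2. On the log2 scale it differed from eGFP by 0.23, with a standard error of 0.45, and this turned to -0.19 without eGFP replicate 2. Endothelial markers summed to at most 3.71 RPM in these libraries, with CDH5, CLDN5 and VWF at 0.

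EPHB6, an Eph receptor that lacks kinase activity, was about 11-fold higher in GIRK1 than in eGFP cells. The gene lies at chr7:142855061-142871094 on the plus strand. The GIRK1 libraries gave 8.28 and 6.86 RPM (92 and 71 reads), the eGFP libraries 0.195 and 0.977 (1 and 10 reads), and WT replicate 2 2.37 (38 reads). Both GIRK1 values lay above every control, and the eGFP values lay below WT replicate 2. Means were 7.57 ± 1.005 and 0.586 ± 0.553 RPM (SD, n = 2). The eGFP SD was above 0.7 of its mean, so the rule of the study's methods did not take EPHB6. A filter of at least 10 reads in every library also removed it, with 1 read in eGFP replicate 1. The log2 fold change in edgeR's quasi-likelihood fit was 3.45 with a standard error of 0.60, 10.9-fold higher, with an adjusted p of 0.0460. Against WT replicate 2 it was 1.69 (standard error 0.63, adjusted p 0.613, unadjusted 0.0306). For eGFP against WT replicate 2 it was -1.76 (standard error 0.69, adjusted p 0.953, unadjusted 0.0391). As for NRP1, with the opposite sign, WT replicate 2 lay between the lines. The call was lost without GIRK1 replicate 1 (adjusted p 0.0573), with upper-quartile scaling (0.0512), with pooled controls (0.112) and with all 6 libraries (0.934), and it was kept in 9 of 13 alternatives (0.000604 to 0.934). The log2 fold change in these was 3.36, 3.48, 2.48 and 3.52, in that order. It was 2.96 without eGFP replicate 1 and 5.10 without eGFP replicate 2, which leaves 1 eGFP read, and a fold change that rests on so few reads depends on the prior count.

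EPHA2 and EPHB4 made up nearly all Eph receptor reads. EPHA2, the main Eph receptor of many epithelia, held 95.1% to 97.4% of EPHA RPM in the 5 libraries, with 152 and 208 RPM in GIRK1, 194 and 285 in eGFP and 252 in WT replicate 2. The lines overlapped, with replicate 2 above replicate 1 in both transfected lines (log2 fold change against eGFP -0.44, standard error 0.27, edgeR adjusted p 0.403). EPHB4, the receptor of EFNB2, held 86.3% to 91.5% of EPHB RPM, with 96.2 and 81.3 RPM in GIRK1, 107 and 97.7 in eGFP and 88.4 in WT replicate 2. Both GIRK1 values lay below both eGFP values, on either side of WT replicate 2 (log2 fold change against eGFP -0.25, standard error 0.22, adjusted p 0.555). EPHA1, EPHB2 and EPHB3 ran from 1.74 to 8.01 RPM and EPHA10 from 0.195 to 1.93 RPM, and none passed the test. Of the other EPHA receptors, EPHA3, EPHA4 and EPHA6 had at most 6 reads in any of these libraries.

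Promoter sequence is shown for EPHB6, as the member that rose, and for NRP2, as the neuropilin that has an entry. The windows are the 250 bases before the start in RefSeq (GRCh38.p14), 5′ to 3′, with each match to GGGCGG on either strand (a GC box, the Sp1 motif) in capitals. The EPHB6 window is chr7:142862506-142862755 and the NRP2 window is chr2:205682251-205682500, both on the plus strand. Each window lies inside its gene's span in the annotation, downstream of the gene start given there.
EPHB6: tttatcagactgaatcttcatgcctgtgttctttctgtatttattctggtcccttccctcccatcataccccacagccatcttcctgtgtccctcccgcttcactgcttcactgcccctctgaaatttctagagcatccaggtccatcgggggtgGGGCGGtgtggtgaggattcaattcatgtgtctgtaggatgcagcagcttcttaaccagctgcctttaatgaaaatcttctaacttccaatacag
NRP2: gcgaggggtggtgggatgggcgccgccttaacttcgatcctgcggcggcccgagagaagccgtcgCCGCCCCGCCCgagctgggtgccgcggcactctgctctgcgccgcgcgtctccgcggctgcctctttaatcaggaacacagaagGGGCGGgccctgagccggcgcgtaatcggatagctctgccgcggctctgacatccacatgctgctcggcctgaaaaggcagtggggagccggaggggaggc
The windows differ in base composition. EPHB6 has 48.0% GC with 3 CG dinucleotides and 1 GC box, and NRP2 has 70.0% GC with 29 CG dinucleotides and 3 GC box matches, a pair of which overlap. The medians over 35116 windows were 58.0% GC and 11 CG dinucleotides. The E-box bound by Snail and ZEB proteins, CAGGTG, is on neither strand of either window, and it was in 17.5% of all windows. The TATA box, searched as TATAAA, is also in neither, and it was in 10.7%. The GC box was in 42.6%. In 74 windows of 47 member genes the shares were 73.0% for the GC box, 16.2% for the E-box and 4.05% for the TATA box. A match is a description of the letters and not of a bound site.

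The ephrins were led by EFNB1, and none passed the adjusted threshold. EFNB1, a transmembrane ligand of EPHB receptors, gave 75.0 and 59.4 RPM in GIRK1, 104 and 80.8 in eGFP and 59.0 in WT replicate 2. WT replicate 2 lay just below the lower GIRK1 value and eGFP was above both, with a log2 fold change of -0.51 against eGFP (standard error 0.25, edgeR adjusted p 0.321). EFNB2, the ligand of EPHB4, was also highest in eGFP, with 18.7 and 12.2 RPM in GIRK1, 30.8 and 19.6 in eGFP and 14.6 in WT replicate 2. EFNB3, a ligand best known in the nervous system, gave 5.40 and 3.09 RPM in GIRK1, 1.95 and 2.05 in eGFP and 2.99 in WT replicate 2. The lower GIRK1 value was close to that of WT replicate 2, and the log2 fold change against eGFP was 1.04 (standard error 0.49, adjusted p 0.304).

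Of the ephrins tethered by a lipid anchor, EFNA1, the usual ligand of EPHA2, was the highest. EFNA1 gave 29.5 and 21.8 RPM in GIRK1, 21.1 and 13.1 in eGFP and 14.0 in WT replicate 2. GIRK1 lay above all controls, though by a small margin over eGFP replicate 1, and with TMM scaling that order was lost. Its log2 fold change was 0.55 against eGFP (standard error 0.33, edgeR adjusted p 0.403) and 0.90 against WT replicate 2 (standard error 0.41, adjusted p 0.708). EFNA1, EFNA3 and EFNA4 lie side by side on chromosome 1, EFNA1 at chr1:155127460-155134857, EFNA3 at chr1:155078872-155087538 and EFNA4 at chr1:155063731-155069553. These neighbours did not share a direction against eGFP, with log2 fold changes of 0.55, 0.48 (standard error 0.44) and -0.48 (standard error 0.33), none past the test. EFNA5 was level, at 5.61 to 7.04 RPM.

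Genes that act with these families were read from lists written from general knowledge: 31 partners of semaphorins and plexins (22 tested), 31 partners of Eph receptors and ephrins (21 tested) and 26 slit, netrin and related guidance genes (11 tested). None passed the adjusted threshold against eGFP in edgeR's test (background 1.6%), and DESeq2 called 1 (RRAS, background 5.75%). At an unadjusted p of 0.05 there were 2 higher and 2 lower semaphorin partners, 2 higher and 0 lower Eph partners, and 2 higher and 1 lower slit and netrin genes, where 8.13% of all tested genes were higher and 10.7% lower. The median log2 fold changes were -0.10, 0.17 and 0.31. RRAS, a small GTPase that plexins switch off, gave 8.19 and 6.38 RPM in GIRK1, 20.7 and 15.8 in eGFP and 12.1 in WT replicate 2. It had the same order of lines as the neuropilins (log2 fold change -1.36, standard error 0.31, edgeR adjusted p 0.0920). RRAS was named after its values were seen, so this likeness is not evidence of a shared change. Both GIRK1 libraries lay below all 3 controls for 19.3% of tested genes.

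The eGFP libraries differed from each other more than the GIRK1 libraries did, which touches every value against eGFP. In RPM, 22 of the 35 tested members were higher in eGFP replicate 1 than in eGFP replicate 2, against a background of 41.8% of tested genes. Among the tested members, SEMA4B (135 and 64.7 RPM), SEMA3F (63.2 and 28.4), SEMA6B (3.32 and 1.37) and SEMA7A (2.54 and 0.391) were over 2-fold higher in eGFP replicate 1, and SEMA4A was at 1.36 RPM there and at 0 in eGFP replicate 2. EPHB6 (0.195 and 0.977) and EPHA10 (0.195 and 0.684) were over 2-fold higher in eGFP replicate 2. NRP1 (40.6 and 36.5) and NRP2 (37.1 and 30.3) were closer. The basal epithelial marker sum was 15782 RPM in eGFP replicate 1 and 10567 in eGFP replicate 2. Most of that gap was KRT5 (10660 and 5741 RPM), and KRT14 and ITGB4 were also higher in eGFP replicate 1. CDH3, EGFR, KRT17 and LAMB3 were lower there, and TP63 was at 0 in both. The part of these markers in the differences between the eGFP libraries was not tested.

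WT replicate 1 had a guidance gene profile unlike that of the 5 other libraries. Of the 35 tested members, 20 lay above all 5 (background 37.0% of tested genes) and 7 below (background 34.4%). The intervals that follow are exact Clopper-Pearson intervals at 95% and cover counting error only. SEMA4C had 265 RPM (246 to 286) where the others had 19.8 to 28.3. SEMA3C had 249 RPM (230 to 270) against 16.3 to 39.4. SEMA3B, at 56.3 RPM (47.4 to 66.4), was 38.4-fold above the highest of the others.

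Receptors also differed there. PLXND1 had 64.6 RPM (55.1 to 75.4) against 3.03 to 5.31, and EPHA4, with 51 reads, had 20.4 RPM (15.2 to 26.8) where no other library exceeded 0.45 RPM. On the other side, EPHA2 had 39.5 RPM (32.1 to 48.1) against 152 to 285, and its share of EPHA RPM was 40.1%. EFNB1 had 8.38 RPM (5.19 to 12.8) against 59.0 to 104. The neuropilins parted, with NRP1 at 73.0 RPM (62.8 to 84.4), above all others, and NRP2 at 3.59 RPM (1.64 to 6.82), below all others. EPHB6 had 0 reads in this library, and the floor of 3 reads there is 1.20 RPM. SEMA5A had 40 reads and SEMA4A 16.0 RPM (11.4 to 21.7) against at most 1.36. The luminal marker sum of 13717 RPM moved with these values, and its part in them was not tested.

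**Figure D4:**
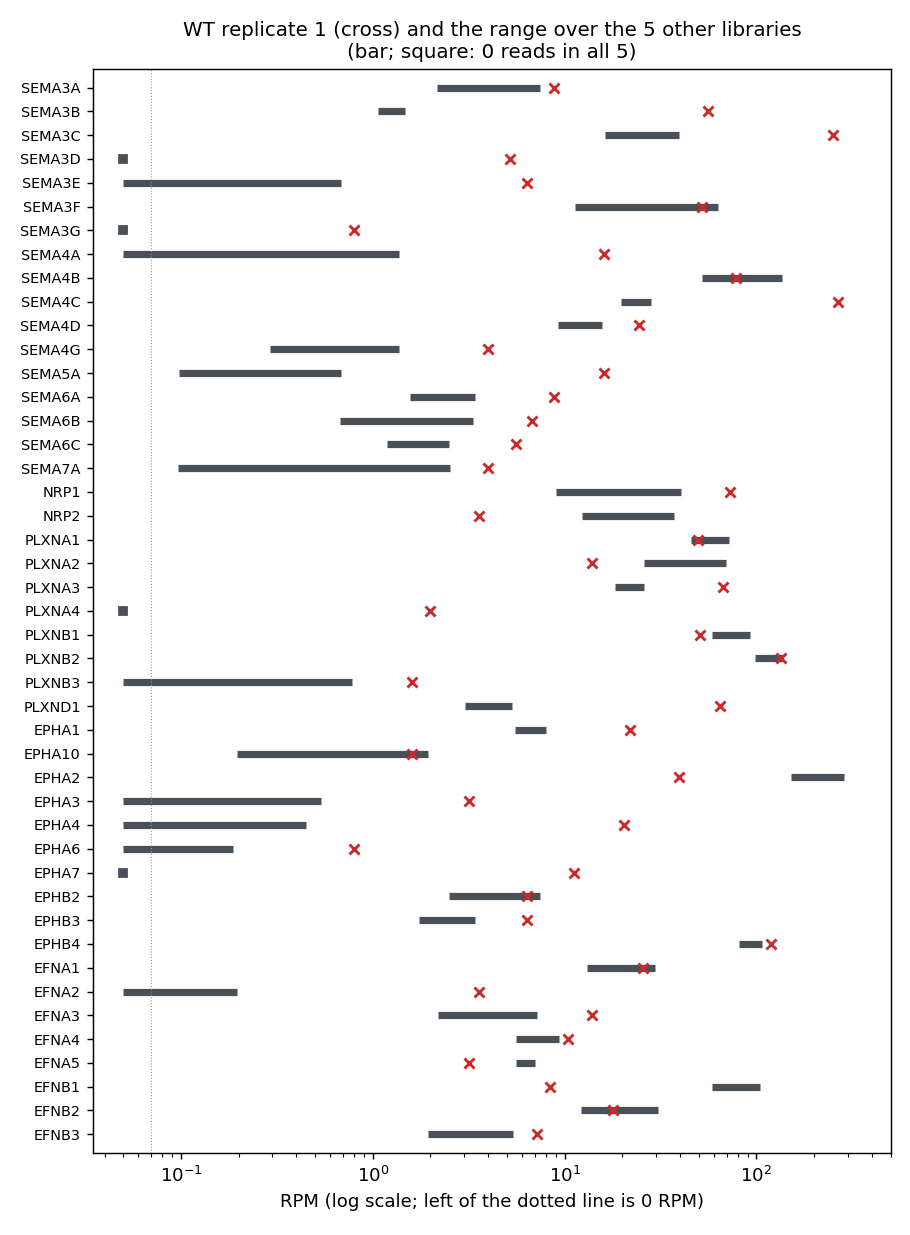
RPM (log axis) of the 45 members with reads in WT replicate 1 (crosses) beside the range over the 5 other libraries (bars; a square marks 0 reads in all 5). SEMA3B, SEMA3C, SEMA4C, PLXND1 and EPHA4 lie far to the right of the bars, and EPHA2, EFNB1 and NRP2 to the left.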

How the data were processed

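RNA was measured in 6 libraries labelled as parental, eGFP and GIRK1 MCF10A cells. The authors mapped Ion AmpliSeq reads to amplicons in the Ion Torrent suite. They deposited read counts per amplicon, not normalized. The deposited RPM values are those counts over the library total. The 20812 rows include 10 spike-in rows, which had no reads and were left out.

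Libraries were grouped by their labels, and WT replicate 1 stayed out of the fit. Counts of 5 libraries were fitted with edgeR 4.0.16 (R 4.3.3, TMM, filterByExpr, glmQLFit and glmQLFTest on group means, Benjamini-Hochberg over 11779 genes, threshold 0.05), and standard errors were derived from F. The procedure was tested on simulated data in which all genes shared a common value for the spread between libraries. That test therefore gives no support to single calls here. Alternatives were DESeq2 1.42.0, other scalings, filters, thresholds, pooled controls, all 6 libraries, the replicate number as a block and leaving out each library. The contrast of eGFP with WT replicate 2 and the place of WT replicate 1 were added after the data were seen.

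The members and lists were chosen with earlier results of these data known. Named members were those called, those taken by the 2-fold and coefficient of variation (below 0.7) rule with a mean of at least 10 reads, and the highest of each subfamily, and partner genes that were called. Gene positions are those of GENCODE on GRCh38, matched by symbol. How reads of near-identical copies were treated is not given in the sources used here.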

Additional observations from a re-analysis of the deposited data

Results flagged for a closer look

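In WT replicate 1, the library left out of the comparisons, 4 members had more than 3 reads although none of the 5 other libraries had more than 3. The share of all genes with this pattern was not counted. WT replicate 1 lay above all 5 other libraries for 37.0% of tested genes, so the count is not read as particular to the members. EPHA7, an Eph receptor known from the nervous system, had 28 reads, and SEMA3D, a secreted semaphorin, had 13 reads, both with 0 reads in the 5 other libraries. EFNA2, a lipid-anchored ephrin, had 9 reads, where eGFP replicate 1 and WT replicate 2 had 1 read each. PLXNA4, a class A plexin, had 5 reads and none elsewhere. The library holds 2506120 reads, the fewest of the 6.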

How the results depend on the processing

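The number of members called against eGFP was 2 in the fit as reported and 2 with DESeq2 size factors or total reads. It was 4 with the DESeq2 test, 6 without a filter, 1 with at least 10 reads in every library, 1 with upper-quartile scaling, 0 with pooled controls, 0 with all 6 libraries and 0 at an adjusted p of 0.01, and it ran from 1 to 12 when each library was left out. Over all genes, 188 were called as reported, 865 without a filter (15206 tested), 677 with DESeq2, 107 with at least 10 reads in every library and 0 with all 6 libraries. Against WT replicate 2, members passed the threshold only when an eGFP library was left out (SEMA3C without either, and EPHB6 also without eGFP replicate 1). The calls over all genes rose as well in those fits, so this is not read as a result about the members. The partner genes called went from 0 to 1 with DESeq2, to 3 without a filter, to 1 at an adjusted p of 0.1, and to between 0 and 11 when each library was left out. The fold rule took 15 members without the coefficient of variation and 1 at 3-fold. The shares of all genes under these versions of the rule were not counted. The members outside the controls numbered 18 to 25 when each library was left out, and 25 (9 higher and 16 lower, against 8 and 7 as reported) without GIRK1 replicate 1 or WT replicate 2. The shares over all tested genes were then 29.8% higher and 29.2% lower without GIRK1 replicate 1, and 29.2% and 24.8% without WT replicate 2. The log2 fold change of PLXNA1 ran from -0.64 (without eGFP replicate 2) to 0.15 (without eGFP replicate 1), and that of PLXND1 from -0.19 (without eGFP replicate 2) to 0.68 (without eGFP replicate 1). The cause of these shifts was not tested. For single members, 206 further values kept their direction and their side of the threshold, 16 passed it only under the alternative, 7 no longer passed it and 2 changed sign. Where leaving out a library left a line with 1 library, that library was assumed to vary like the other line.

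The labels number the libraries of each line 1 and 2. Deviations of same-numbered libraries correlated at 0.20 (GIRK1 and eGFP), 0.15 (eGFP and WT) and 0.03 (GIRK1 and WT) over 9212 genes, so the numbers were not taken to pair the libraries. In the fit with a block for the replicate number, 4 members (EPHB6, NRP1, NRP2 and SEMA3F) and 1 partner gene (RRAS) were called, and 549 genes in all, with 1 residual degree of freedom. Depth limits members with few reads: 3 reads in eGFP replicate 1 are 0.585 RPM.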
